A study of Homo sapiens with 6 samples.

Results

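The DNA mismatch repair genes were followed in a comparison of eHAP cells targeted at TFDP1 with control cells. They are MSH3, MSH6, MLH3, PMS1, PMS2 and EXO1, a named set of 6 genes, and each was found by its symbol among the 15794 human genes of the authors' deposited table. The rule that names them uses no measured value. The 6 samples were polyadenylated RNA from eHAP, an engineered haploid human line derived from the leukaemia line HAP1, in 2 groups of 3 biological replicates. In both, Cas9-expressing cells received a plasmid with puromycin resistance. One group was given guide RNAs against TFDP1 and is labelled knockout, and the other is labelled wild-type with no gene targeted. Puromycin was applied between 24 and 72 h and the cells were taken at 5 days as a transfected population, with 10000 Drosophila S2 cells added to 500000 eHAP cells as a spike-in.

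Mismatch repair removes bases that the replicative polymerases paired wrongly and small loops left by slippage. MutS heterodimers find the error: the one with MSH6 binds base mismatches and very short loops, and the one with MSH3 binds larger loops. MutL heterodimers, built with PMS2, PMS1 or MLH3, are then recruited, EXO1 digests the strand with the error, and the replication machinery fills and seals the gap. The targeted gene, TFDP1, codes for DP1, which pairs with E2F factors at promoters of genes for DNA synthesis.

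For each gene the table holds a log2 fold change, a mean level as log2 CPM (reads scaled to library size) and the authors' likelihood ratio with its p-value and adjusted p. It gives no value per replicate, so library depth and the spread between replicates are unknown. Replicate variation enters only through the authors' test. An approximate standard error (SE), taken as the absolute log2 fold change over the root of the likelihood ratio, supplies the intervals below. TFDP1 itself had a log2 fold change of 1.17 (SE 0.03) at 226 CPM, and the table does not name its numerator. Signs are therefore read against TFDP1: positive means higher in whichever group had more TFDP1 transcript, negative means lower there. The sources used here do not state which group that was. Of 12 blood lineage markers listed for the origin of the line, 6 were in the table, GATA2 at 81.0 CPM with the highest level, while PTPRC, GATA1 and SPI1 were not in it. KIT (-0.98) and TAL1 (-1.20) were called negative and ITGA2B (0.49) positive, and the median of the 6 markers was -0.52. Over all genes 17.3% were called positive and 22.2% negative. Fibroblast markers, 6 of 10 in the table, were called negative in 5, led by SPARC at -3.47. Only 1 of these 5 stood at or above the median level of all genes. Of 8 epithelial markers 5 were in the table, 3 called negative and 1 positive. EPCAM was at -4.18 and 0.515 CPM and KRT8 at -2.94, while CLDN1, the positive one, was at 1.16 and 24.1 CPM. The part of these shifts in the values of the repair genes was not tested.

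The mismatch repair genes did not move as one group. MSH6, MSH3 and EXO1 were positive, PMS2 was negative, and PMS1 and MLH3 did not pass an adjusted p of 0.05 in the authors' edgeR test. The members thus had 3 positive and 1 negative call among 6, where 39.5% of all genes measured were called, 17.3% positive and 22.2% negative. The median log2 fold change of the 6 was 0.06, against -0.03 over all genes. After re-centring on the median of 77 ribosomal protein genes, 62.5% of all called genes were positive, against 43.9% as deposited, and the median of the 6 was 0.14. The same 3 members were then positive and the same 1 negative.

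The promoters are shown first, since 4 of the 6 carry letters of the kind that E2F and DP1 dimers bind. In windows from 250 bases before to 50 bases after the start of the 5′-most RefSeq transcript (GRCh38.p14), both strands were searched for TTTGGCGC, TTTCCCGC, TTTGCCGC and TTTCGCGC. MSH3, MSH6, PMS2 and EXO1 had a match, and 3 of the matches are shown. Each stretch reads 5′ to 3′ on the strand of the gene, with the matched letters in capitals.
MSH6: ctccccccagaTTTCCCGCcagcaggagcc
PMS2: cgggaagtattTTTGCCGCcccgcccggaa
EXO1: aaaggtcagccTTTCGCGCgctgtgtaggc

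The MSH6 stretch is chr2:47783137-47783166, plus strand, with the match at positions 4 to 11 after the start. The PMS2 stretch is chr7:6009131-6009160, minus strand, with the match from -43 to -36. The EXO1 stretch is chr1:241848197-241848226, plus strand, with the match at positions 5 to 12 after the start. The windows of MLH3 and PMS1 hold none of these letters.

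Among 11251 genes of the table with such a window, 5.21% had a match. Of the 586 genes with one, 31.4% were called positive and 17.4% negative in the authors' deposited table, against 18.2% and 23.4% of the 10665 genes without one. Among genes at 23.5 CPM, the median, or more, 36.8% of those with a match were positive and 17.9% negative, against 24.8% and 27.1% of those without. MSH3, MSH6 and EXO1 were positive and carried a match, and PMS2 was negative and carried one too. A match of letters is a description of the window and not a measured binding site.

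PMS2 and EXO1 also share TGACGTCA, the letters of the cyclic AMP response element, found in 3.12% of the windows. These letters were chosen after the members' windows had been read.
PMS2: cccaggctcttTGACGTCAcgaagtcgacc
EXO1: gggatacgcgtTGACGTCAcatcctctggg
The PMS2 stretch is chr7:6009192-6009221 on the minus strand, with its match from -104 to -97, and the EXO1 stretch is chr1:241848139-241848168 on the plus strand, with its match from -54 to -47. The windows of PMS2 and EXO1 thus hold both kinds of letters, yet the genes had opposite signs in the comparison. CCAAT, the letters of the factor NF-Y, matched at 3 places in PMS2, 2 in PMS1 and 1 in MSH6, and in 36% of all windows. The GC content of the 6 windows ran from 51% in MLH3 to 78% in MSH6. TTTGAA, the letters of the cell cycle homology region that the MuvB complex binds, were in none of the 6 windows and in 9.88% of all windows.

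Of the mismatch recognition genes, MSH6 was the most abundant member and had the narrower interval. MSH6 (ENSG00000116062.14, chromosome 2, positions 47695530 to 47810101, plus strand, GENCODE 29 on GRCh38) stood at 268 CPM, above 96.1% of the genes in the table. Its log2 fold change was 0.22 (SE 0.03), a ratio of 1.17 with an approximate 95% interval of 1.12 to 1.22, and its adjusted p in the authors' edgeR test was 2.26e-11. The change was thus small, with an interval that did not reach a ratio of 1. Genes of like level were called often, 30.9% of them positive and 30% negative within 0.5 log2 CPM of MSH6. Removing trends on transcript length and GC content took its log2 fold change to 0.16, with an adjusted p of 5.80e-06 recomputed from the approximate SE.

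The reads of MSH6 can be shared with a neighbour. Its exons overlap 1785 bases of FBXO11, a ubiquitin ligase gene on the opposite strand whose end faces that of MSH6, and 16.2% of the exonic bases of MSH6 lie under such exons. Of the 50-base words of the longest MSH6 transcript, 21.6% also occur in FBXO11 on one strand or the other. FBXO11 was itself positive at 0.28, with 91.5 CPM. The sources used here do not state whether reads were counted by strand, so the reads of that overlap cannot be told apart.

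MSH3 (ENSG00000113318.9, chromosome 5, positions 80654648 to 80876460, plus strand) stood at 27.4 CPM, just above the middle of the table. Its log2 fold change was 0.27 (SE 0.08), a ratio of 1.21 with an interval of 1.09 to 1.34, and the authors' edgeR test gave an adjusted p of 0.00196. The interval overlapped that of MSH6, and both recognition genes were positive. Of the 50-base words of MSH3 8.04% also occur in transcripts of other genes, and as with MSH6 the reads of such stretches cannot be told apart. With the CPM of the whole gene divided by its coding length, MSH6 had 65.6 CPM per kilobase and MSH3 8.03, a ratio of 8.17. Reads outside the coding part are included in these values. Per kilobase of the longest transcript the ratio was 5.35. The longest annotated MSH6 transcript has 7476 bases, and the longest coding part among the transcripts of the gene has 4080. The level of MSH6 thus exceeded that of MSH3 under either length.

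The excision gene had the largest change of the 6. EXO1 (ENSG00000174371.16, chromosome 1, positions 241847967 to 241895148, plus strand) encodes the exonuclease that removes the strand with the error and also acts in the resection of DNA breaks. It stood at 56.6 CPM with a log2 fold change of 0.59 (SE 0.06), a ratio of 1.51 with an interval of 1.40 to 1.63. Its adjusted p in the authors' edgeR test was 5.31e-24, and it ranked 320th of the table by p. Of the genes called positive, 86.0% had a smaller change. The intervals on the log2 scale, 0.48 to 0.71 for EXO1, 0.12 to 0.42 for MSH3 and 0.16 to 0.28 for MSH6, leave EXO1 apart from both recognition genes. No exon of another gene overlaps EXO1, and none of its 50-base words occurs in a transcript of another gene.

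The MutL genes differed from the MutS genes in sign or did not pass. PMS2 (ENSG00000122512.15, chromosome 7, positions 5973239 to 6009125, minus strand) encodes the subunit whose endonuclease nicks the strand with the error. At 19.9 CPM it had a log2 fold change of -0.32 (SE 0.09), a ratio of 0.802 with an interval of 0.710 to 0.906, and an adjusted p of 0.00179 in the authors' edgeR test. It was lower in the group with more TFDP1 transcript, the group in which MSH3, MSH6 and EXO1 were higher. With length and GC trends removed it was at -0.22 and still passed, with an adjusted p of 0.0406. Within 0.5 log2 CPM of PMS2, 23.7% of genes were called negative and 21% positive.

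PMS2 has near-identical pseudogene copies, and its value is uncertain for that reason. Of the 50-base words of its longest transcript 34.1% also occur in transcripts of other genes, 809 of them in PMS2CL and 111 in PMS2P1. PMS2CL stood at -0.15 and PMS2P1 at -0.12 in the authors' deposited table, at mean log2 CPM of 1.83 and 2.69, and neither passed (adjusted p of 0.586 and 0.572 in edgeR). PMS2P3, with 46 shared words, was at 0.01 and a mean log2 CPM of 2.62 and did not pass either (adjusted p of 0.972 in edgeR). Further copies in the table, PMS2P4, PMS2P5, PMS2P7 and PMS2P9 among them, had lower levels and negative changes that did not pass. Some copies, such as PMS2P10 and PMS2P11, are not in the table. The sources used here do not state how reads with several matches were counted.

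PMS1 (ENSG00000064933.17, chromosome 2, positions 189784085 to 189877629, plus strand) encodes a MutL subunit with no firmly assigned part in the repair reaction. At 27.7 CPM its log2 fold change was -0.11 (SE 0.07), a ratio of 0.927 with an interval of 0.838 to 1.03, and it did not pass the authors' edgeR test (adjusted p = 0.272). Its level was close to that of MSH3, and so was its SE, so that a change as large as that of MSH3 lies outside the interval of PMS1.

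MLH3 (ENSG00000119684.15, chromosome 14, positions 75013764 to 75051532, minus strand) encodes a MutL subunit known for its part in meiotic crossing over. It was scarce in these libraries, at 0.296 CPM, a level with 7.86% of genes below it. Its log2 fold change of -0.29 had an SE of 0.67, and the interval of the ratio ran from 0.329 to 2.03, with an adjusted p of 0.791 in the authors' edgeR test. No difference was detectable at this precision, and of genes of like level 2.08% were called positive and 8.7% negative. No exon of another gene overlaps MLH3 in GENCODE 29, and none of its 50-base words is shared.

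Ordered by whole-gene CPM per kilobase of coding length, the members ran from MSH6 (65.6 CPM) through EXO1 (22.3) and PMS1 (9.90) to MSH3 (8.03), PMS2 (7.69) and MLH3 (0.0679). PMS1, MSH3 and PMS2 lay close together, and their order by the longest transcript was PMS1, PMS2 and MSH3, at 8.10, 6.97 and 6.70 CPM. With no value per replicate, the spread of these levels is unknown.

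**Figure D1:**
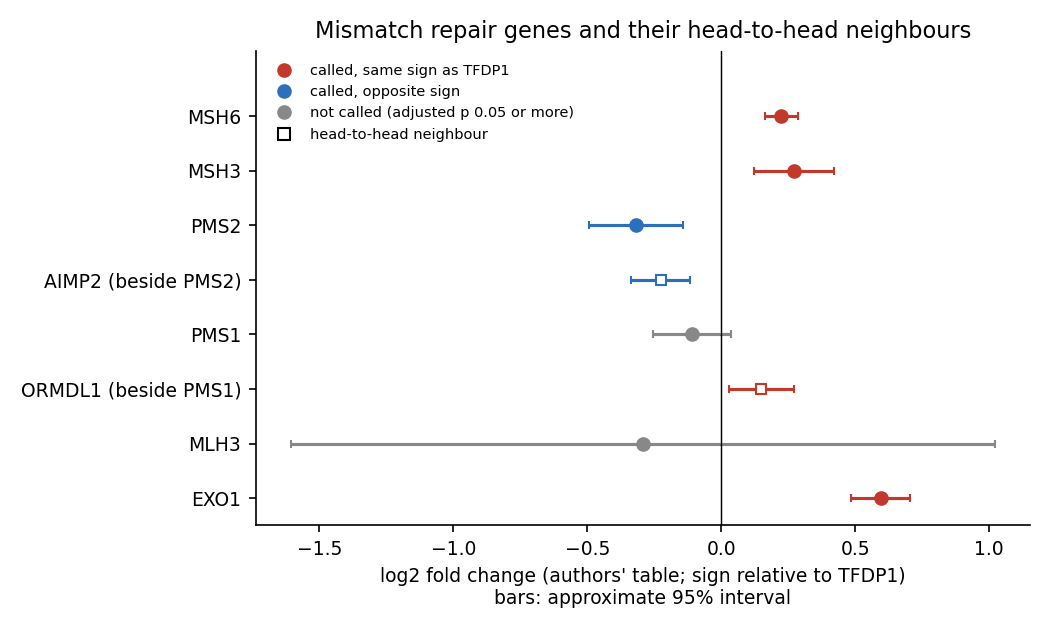
Log2 fold change of the 6 mismatch repair genes (filled circles) and of the head-to-head neighbours of 2 of them (open squares), with the sign read against TFDP1; bars are approximate 95% intervals. EXO1 at 0.59 lies farthest to the right, PMS2 at -0.32 and its neighbour AIMP2 at -0.23 lie to the left of 0, and the interval of MLH3 spans 0 widely.

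Head-to-head neighbours are described for PMS2 and PMS1 and shown in the plot of members and neighbours. Such a neighbour is here a protein-coding gene on the opposite strand that starts within 1000 bases. PMS2 starts 120 bases from AIMP2, a scaffold gene of the aminoacyl-tRNA synthetase complex (chromosome 7, positions 6009245 to 6023834, plus strand). AIMP2 was negative at -0.23 (SE 0.06, adjusted p = 3.68e-04 in the authors' edgeR test), the sign of PMS2. Its own promoter window overlaps that of PMS2 and holds the same E2F and TGACGTCA letters. AIMP2 shared no 50-base word with PMS2. PMS1 overlaps the start of ORMDL1, a regulator of sphingolipid synthesis (chromosome 2, positions 189770323 to 189784371, minus strand). The exons of the 2 genes share 103 bases, 1.89% of the exonic bases of PMS1. In that overlap reads of PMS1 and ORMDL1 cannot be told apart. ORMDL1 was positive at 0.15 with an adjusted p of 0.0483 in the authors' edgeR test, whereas PMS1 was at -0.11 and not called. Over the table, 1043 head-to-head pairs had both genes measured and 199 had both called. Of these, 57 were both positive, 80 both negative and 62 of opposite sign, so that 68.8% had the same sign. The pair of PMS2 and AIMP2 is among them. Of all called genes 43.9% were positive, and the share of like signs among unlinked genes was not computed. Pairs whose starts overlap are counted as well.

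Genes within 500 kb of each of the 6 members included calls of both signs. Those around EXO1 gave 2 positive and 1 negative of 6, those around MSH3 gave 2 and 3 of 12, and those around PMS2 gave 1 and 5 of 17. AIMP2 is among the negative genes around PMS2. The windows of MSH6 gave 2 and 2 of 5, of MLH3 2 and 2 of 15, and of PMS1 2 and 1 of 10. Over all genes 17.3% were called positive and 22.2% negative, and differences from these shares were not tested.

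**Figure D2:**
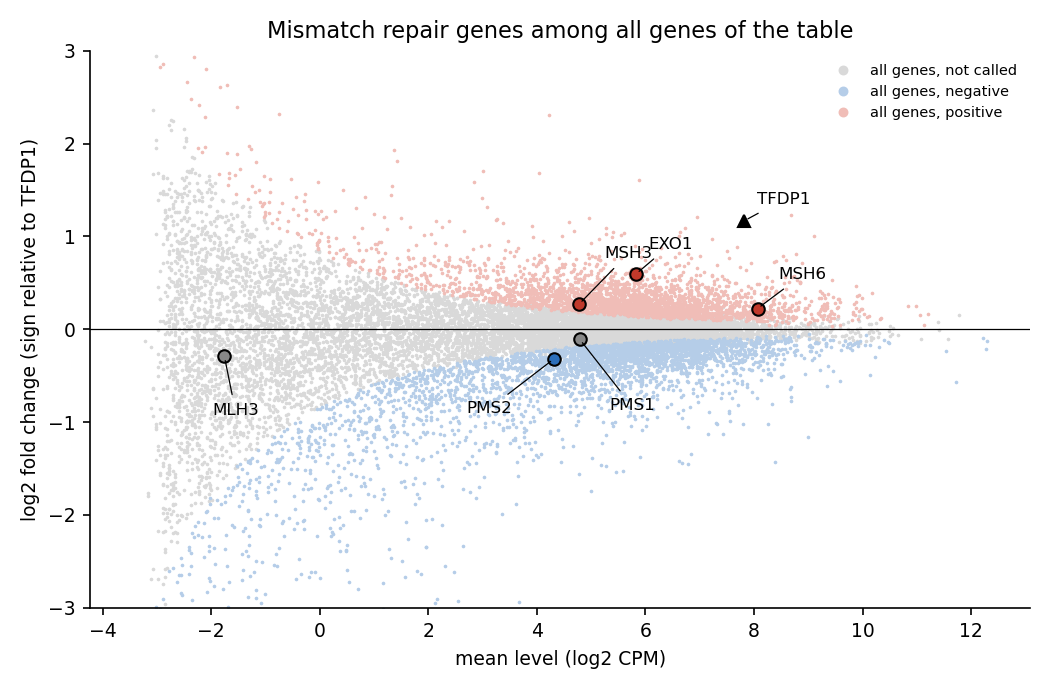
Log2 fold change against mean level in log2 CPM for all genes, with the 6 members as large circles and TFDP1 as a triangle; 82 genes lie beyond the plotted range of fold changes. MSH6, MSH3 and EXO1 lie in the positive cloud, PMS2 in the negative one, and MLH3 far to the left, where 2.08% of genes of like level were called positive.

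**Figure D3:**
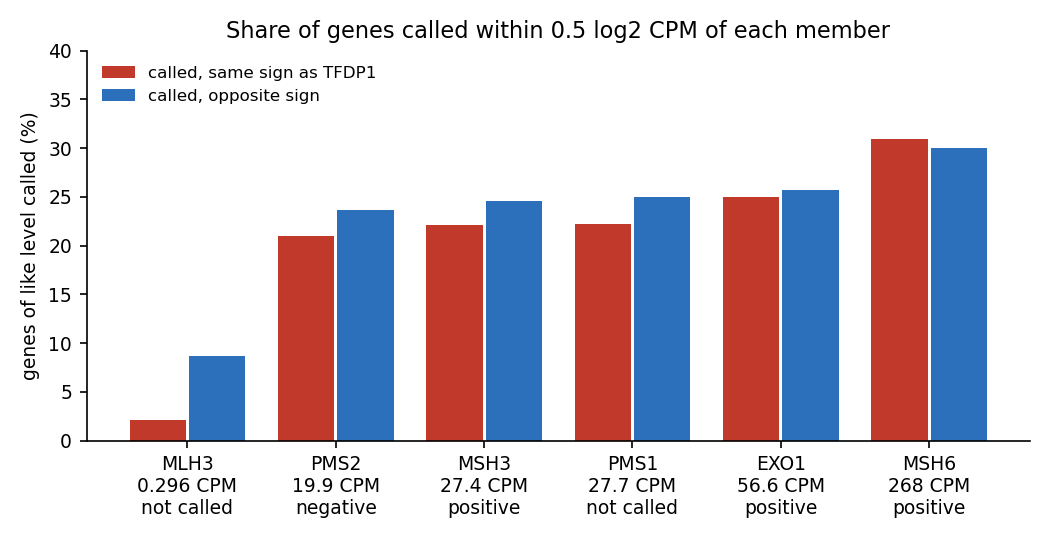
Percent of genes called with the sign of TFDP1 or the opposite sign, among genes within 0.5 log2 CPM of each member; the members are ordered by level. The positive share grows from 2.08% around MLH3 to 30.9% around MSH6.

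The plot of call shares by level sets each member beside genes of like mean level, whose SE can still differ. Around EXO1 25% of genes were called positive and 25.7% negative. Around MSH3 the shares were 22.1% and 24.6%, and around PMS1 22.2% and 25%. With a change of at least 0.32 on the log2 scale also required, EXO1 was the remaining called member, while 7.96% of all genes were positive and 12.8% negative. PMS2, at a ratio of 0.802, fell just short of that limit.

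The enzymes that refill and seal the gap were mostly positive. Of 14 listed, 9 were positive, 1 was negative and 4 did not pass, and their median was 0.20 on the log2 scale, or 0.35 with length and GC trends removed. Of all genes 17.3% were called positive and 22.2% negative, and of those at the median level or more 25.4% and 26.5%. Among the loading and sliding clamp genes, PCNA, the clamp that tethers the polymerase and interacts with MSH6 and MSH3, was at 0.39 and 237 CPM. The clamp loader genes RFC1 (0.16), RFC2 (0.32), RFC4 (0.29) and RFC5 (0.24) were positive, and RFC3, at 0.02, was not called. Among the subunits of polymerase delta, POLD3 was at 1.05, the largest change of this list, POLD2 at 0.16 and POLD4 negative at -0.43. The catalytic subunit gene POLD1, at 0.05 and 161 CPM, did not pass the authors' edgeR test (adjusted p = 0.483). LIG1, the ligase that seals the nick, was at 0.40. RPA1, the large subunit of the single-strand binding protein, was at 0.30, and its partners RPA2 (-0.09) and RPA3 (0.08) were not called.

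Factors that couple mismatch repair to chromatin and helicases were positive in 5 of 7 genes and negative in 0, also at an unadjusted p under 0.05 in the authors' edgeR test, and their median was 0.35. The shares called over all genes were 17.3% positive and 22.2% negative. MCM8 (0.46) and MCM9 (0.35) encode a helicase pair, of which MCM9 is reported to act with the MutS and MutL proteins. HMGB1, a DNA-bending protein, was at 0.42, and CHAF1B, a subunit of the histone chaperone CAF-1, at 0.44. SETD2, the methyltransferase whose histone mark is bound by MSH6, was at 0.17 with an adjusted p of 0.0193 in the authors' edgeR test. CHAF1A and the nuclease gene FAN1 were not called, at 0.03 and -0.01. Of the meiotic MutS homologues, MSH4 was not in the table and MSH5 stood at 0.380 CPM, with a log2 fold change of 0.73 that did not pass (adjusted p = 0.358).

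Among 17 structure-specific nuclease genes, 10 were positive and 0 negative, where 17.3% and 22.2% of all genes were, and their median was 0.27. None of them exceeded EXO1 at 0.59: FEN1, the flap nuclease of the same family, was at 0.53, followed by ERCC1 (0.42), RBBP8 (0.42) and DCLRE1A (0.39). At an unadjusted p under 0.05 TREX1, at -0.32, was the one nuclease gene below 0.

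The calls of 4 other repair lists are given beside the 17.3% positive and 22.2% negative of all genes, and differences between lists were not tested. Homologous recombination gave 10 positive and 1 negative of 15, with a median of 0.25, and XRCC3 (0.45), TOP3A (0.39), RBBP8 (0.42) and RMI1 (0.47) had the smallest p. End joining gave 5 and 1 of 11 with a median of 0.08, including XRCC5 (0.18), RIF1 (0.44) and DCLRE1C (0.30) against POLL (-0.31); that median was 0.16 re-centred on the ribosomal protein median and 0.22 with length and GC trends removed. Base excision repair gave 3 and 3 of 19 with a median of -0.0023: the glycosylase genes MPG (-0.46) and SMUG1 (-0.44) were negative, and NEIL3 (0.33) and PARP2 (0.37) positive. Nucleotide excision repair gave 4 and 3 of 19 with a median of -0.03. ERCC1 (0.42) and ERCC4 (0.31) were positive, and the helicase gene ERCC2 (-0.40) was negative, as was DDB1 (-0.15), whose adjusted p of 7.67e-84 in the authors' edgeR test is uncertain: its SE of 0.00749 was far below the median of 0.0431 for genes of like level. The base excision median turned positive after re-centring on the median gene, at 0.02, and on the ribosomal protein median 7 of its genes were positive and 3 negative. The nucleotide excision median turned positive on the latter as well, at 0.06. The lists share samples, and some genes, ERCC1, ERCC4, RBBP8 and DCLRE1C among them, stand in 2 lists each.

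**Figure D4:**
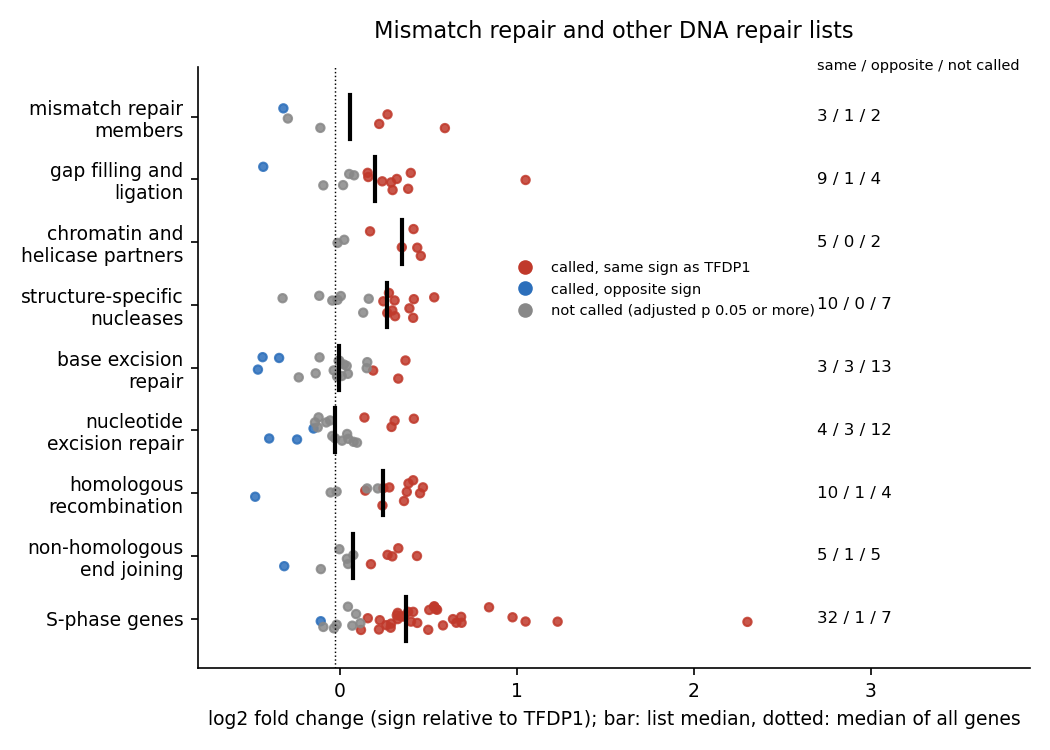
Log2 fold change of each gene in the mismatch repair set and in 8 other lists, coloured by call; black bars are list medians, the dotted line the median of all genes, and the numbers at the right count genes called with the sign of TFDP1, called with the opposite sign and not called. The mismatch repair set, at 3, 1 and 2, is split around 0, while the S-phase list, at 32, 1 and 7, lies almost wholly to the right.

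Genes transcribed in S phase, listed without the 6 members, were positive in 32 of 40 cases, with 1 negative, 7 that did not pass and a median of 0.38. RRM2 (1.23), CCNE2 (2.30), USP1 (0.84) and POLD3 (1.05) had the smallest p. Over all genes the shares called were 17.3% positive and 22.2% negative. The 0.59 of EXO1 lay above that median, and the 0.27 of MSH3 and 0.22 of MSH6 lay below it. The part of a shift in the share of cells in S phase in the values of the repair genes was not tested, and in bulk RNA more cells in a phase and more transcript per cell cannot be told apart.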

How the data were processed

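RNA of 6 samples, 3 with guides against TFDP1 and 3 controls, was sequenced by the submitters. The authors' p-values test the difference between these 2 groups. Per the submitters' processing notes, the builds were hg38 and dm6 and the tools edgeR, featureCounts, HISAT2 and Trimmomatic. Sources used here do not give their order, versions, strand setting or library scaling. The deposited table holds, per the file headers, a log2 fold change, a mean log2 CPM, a likelihood ratio (a score deposited by the authors) and the authors' p-value and FDR. All 15794 rows carry the hg38 prefix. No counts per sample were used, so no new test was made, and depth is unknown.

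A gene counted as called where the authors' FDR was below 0.05, and calls were divided by sign. The members and lists were chosen with earlier results of these data known. The text names all members, TFDP1, head-to-head neighbours, every gap filling gene, the called genes of the partner list and the 4 called genes of smallest p of every other repair or S-phase list. Some genes that the rules name are not reported here. FBXO11, the PMS2 copies, the marker genes and uncalled genes named beside a count were added after their values were seen. A self-test on simulated statistics checked that the re-centring code recovers known shifts. Its noise was drawn with the SE that it then used, so it cannot tell whether the approximate SE holds for the authors' likelihood ratio. GENCODE 29 gave positions, lengths and GC content for 14777 genes matched by symbol (93.6%). Promoters came from RefSeq (GRCh38.p14) and matched all 6 members. Lowess (statsmodels 0.14.6, span 0.3) removed the trends. Work was done in Python 3.11.15 with scipy 1.17.1, numpy 2.4.6, pandas 2.3.3 and, for plots, matplotlib 3.10.9.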

Additional observations from a re-analysis of the deposited data

How the results depend on the processing

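The calls of the 6 members kept their direction and side of the threshold at an adjusted p of 0.01, with the adjustment recomputed over the deposited rows, re-centred on the median gene or on the ribosomal protein median, and with length and GC trends removed. With a change of at least 0.32 on the log2 scale required, the positive count went from 3 to 1 and the negative from 1 to 0, because MSH3 (0.27), MSH6 (0.22) and PMS2 (-0.32) fell short of it. The median of the 6 went from 0.06 to 0.14 with ribosomal re-centring and to 0.02 with trends removed. The base excision median was 0.0231, 0.0804 and 0.0858 re-centred on the median gene, on the ribosomal median and with trends removed, and the nucleotide excision median was 0.0567 and 0.0625 under the last 2 of these, against slightly negative medians as deposited. Ribosomal re-centring took the positive base excision genes from 3 to 7. Removing trends took the gap filling median from 0.20 to 0.35 and the end joining median from 0.08 to 0.22, and with genes under the median level left out, which tests fewer genes, end joining had 3 positive genes in place of 5. Called shares of all genes moved from 17.3% to 26.8% positive with ribosomal re-centring, and from 22.2% to 14.6% negative with trends removed. Leaving out replicates was not run, since values per replicate were not used. No paired analysis was possible because the columns carry no replicates. Depth is unknown, and at the level of MLH3, 0.296 CPM, the interval still held ratios from 0.329 to 2.03.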
